A study of Mus musculus with 2 samples.

Results

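The genes described here are 50 genes of DNA replication and mitosis, of which 47 were among the 9644 genes with a named splice junction, in resting and stimulated CD4+ T cells (helper T cells) of the mouse. They were chosen by symbol, with earlier results of these data known, as a replication set of 28 genes and a mitosis set of 22. Spleens of 4 mice (male, C57BL/6JJcl) were pooled and the cells enriched magnetically for CD4+ cells. The stimulated library came from cells held for 4 h on plate-bound antibodies to CD3e and CD28, each at 2 ug/ml, which engage the antigen receptor and its main co-receptor for activation. The mock library came from cells handled in the same way without the antibodies. No age is given in the sources used here, and 1 library was sequenced per group, so there is no replicate check and every difference is one between these 2 libraries.

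Before a cell copies its DNA, the origin recognition complex and its loading partners place the Mcm2 to Mcm7 helicase on DNA. Clamp loaders, polymerases and a ligase then build and join the new strands. In mitosis, condensin compacts the chromosomes, the kinetochore attaches them to the spindle and a checkpoint delays their separation until attachment is complete. Resting T cells hold little of this machinery, and its genes are known to rise as activated cells approach division, under control of the E2F transcription factors and the retinoblastoma family.

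Reads across splice junctions were counted, 1147232 in the mock and 1341197 in the stimulated library. A gene's level is the sum over its junctions per 1000000 junction reads (RPM), and a ratio is the stimulated level over the mock level with its exact (Clopper-Pearson) 95% interval. The intervals account for counting error alone, and reads that are PCR copies of each other are counted as separate. Genes reaching 20 reads in the 2 libraries together are called measured here. A measured gene was called higher or lower when its levels differed at least 2-fold and the interval excluded 1. A count of 0 allows a level of up to 2.61 RPM in the mock and 2.24 in the stimulated library. The label of the cells was set beside 10 T cell genes, listed as CD4 T cell markers. All were measured, with 9182 reads in all in the mock and 7221 in the stimulated library. Among them only Cd4 tells CD4+ from other T cells, so the sum shows T cells but not their kind. Cd4 had 650 and 285 reads, and Tcf7, with 3717 and 419, held the most mock reads. Of the 10 genes 6 had a ratio below 1 and 4 above 1.

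Junctions were named for 47 of the 50 genes, 574 junctions in all, and 31 genes were measured. Another 16 had between 3 and 19 reads, and Gins2, Pcna and Ccnb1 had no named junction. Of the 31 measured genes, 9 were called lower in the stimulated library and 1 was called higher. That is 29.0% lower and 3.23% higher, beside 25.1% lower and 17.0% higher among all 7197 measured genes, so the share of lower genes was near the background. The genes called lower were Mcm4, Rfc2, Pole and Lig1 of the replication set and Smc4, Ncapd2, Bub1b, Ccna2 and Mki67 of the mitosis set, and the gene called higher was Orc2. The median log2 ratio was −0.35 over the 31 genes and −0.21 over all measured genes, and 27 of the 31 (87.1%) had a ratio below 1, against 56.9% of all. With libraries set level by the trimmed mean of M values, a scaling that puts the point of no change at a log2 ratio of −0.24, 19 of the 31 lay below it, 7 were called lower and 2 higher. On that scale 19.6% of all measured genes were lower and 21.6% higher. The median of all measured genes lay just above that point of no change, and their share below it was not counted. In bulk RNA, fewer cells of a type and less RNA per cell cannot be told apart.

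**Figure D1:**
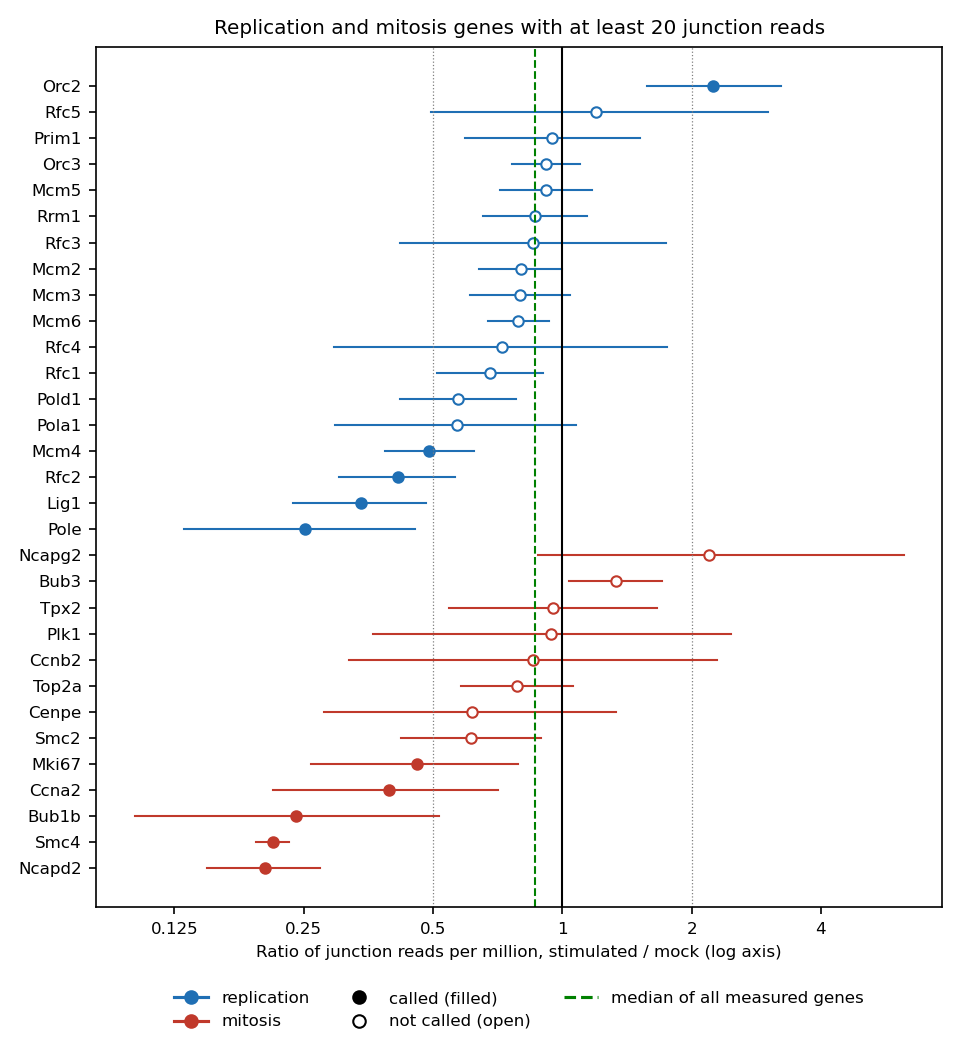
Ratio of stimulated to mock junction RPM (log axis) for the 31 measured genes, replication in blue and mitosis in red, each with its exact 95% interval for counting error; filled points are called genes and the dashed line is the median of all measured genes. Smc4 and Ncapd2 lie lowest, with ratios of 0.212 and 0.203, and Orc2 is the filled point above 2.

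The replication set held 1989 reads in the mock and 1703 in the stimulated library, a ratio of 0.732 (0.686 to 0.782) or −0.45 on the log2 scale. The mitosis set held 3338 and 1166 reads, a ratio of 0.299 (0.279 to 0.319) or −1.74. The mitosis ratio was 0.408 times the replication ratio, with an approximate 95% counting interval of 0.372 to 0.448. This gap came mostly from Smc4, a gene of condensin, the ring complex that compacts chromosomes. Smc4 alone made up 77.7% of the mitosis reads in the mock and 55.1% in the stimulated library. Without Smc4 the mitosis set went from 744 to 524 reads, a ratio of 0.602 (0.538 to 0.675), and the ratio of the ratios was 0.823 (0.723 to 0.936). Without Smc4 and the condensin gene Ncapd2 the set went from 508 to 468 reads, a ratio of 0.788 (0.694 to 0.895). Without the 4 condensin genes it went from 430 to 399 reads, a ratio of 0.794 (0.691 to 0.912). The ratio of the ratios was then 1.08 (0.932 to 1.26), an interval that spans 1. All of these subsets were chosen after the values had been seen.

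**Figure D2:**
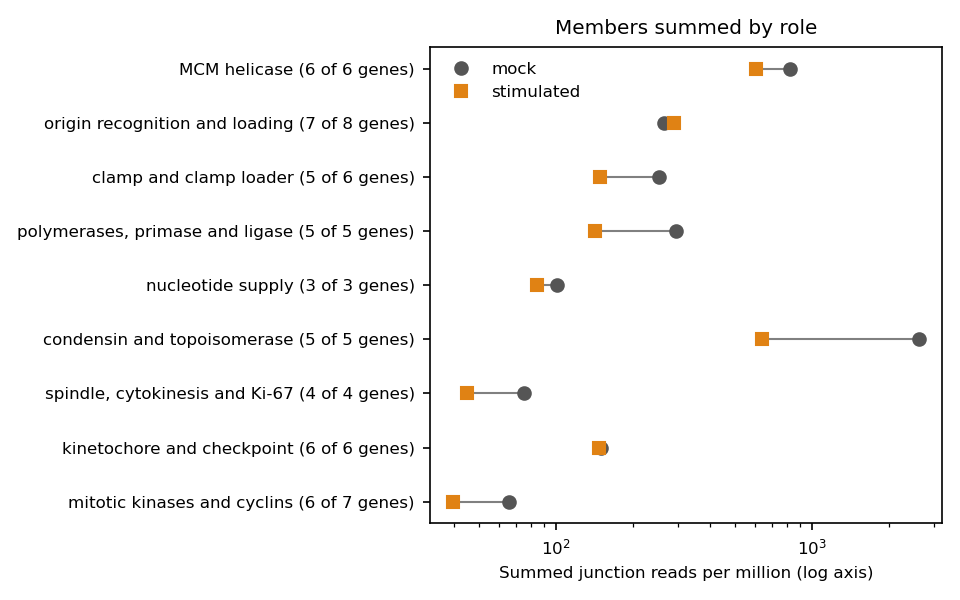
Junction RPM (log axis) summed over the genes of each role, mock as circles and stimulated as squares, with the number of genes that had a named junction. Condensin and topoisomerase fell from 2619 to 638 RPM, while the kinetochore and checkpoint genes stood at 149.9 and 146.9.

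Expression was read from exon joins, and 6 of them are shown, each from a gene described below: 3 from genes called lower, 1 from the gene called higher and 2 from genes that were not called. Each line gives 15 bases of the upstream exon in lower case and 15 bases of the downstream exon in capitals, all coding, from the GENCODE M21 transcripts.
Smc4: caagactgctgacagAAATCTTAAAAAGGC
Ncapd2: agtccagtgaggacgAACTTTCAGCAGAGA
Rfc2: tgcctcaaatgacagGGGCATCGATGTGGT
Orc2: gtcagtgtgaaatcaATCCTGAACTCTATA
Mcm6: acctactagacacaaGATTCGTGAGCTCAC
Bub3: tgaacactgatcaagAAAATCTTGTTGGAA
The Smc4 join removes the intron at chr3:68834355-68835329 (mm9, plus strand) and was read 251 times in the mock and 66 times in the stimulated library. The Ncapd2 join (chr6:125118338-125118607, minus strand) was read 56 and 12 times, and the Rfc2 join (chr5:135065332-135066745, plus strand) 28 and 16 times. The Orc2 join (chr1:58529246-58531652, minus strand) went the other way, with 6 and 36 reads. The Mcm6 join (chr1:130248260-130250036, minus strand) had 38 and 48 reads and the Bub3 join (chr7:138705121-138706847, plus strand) 28 and 36.

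Of the helicase genes, 5 of 6 were measured and 1 was called lower. Mcm4 (mm9 chr16:15624863-15637203, from its first to its last named intron, as for the spans below) had 197 reads in the mock and 113 in the stimulated library, 171.7 and 84.3 RPM. It was 2.04-fold lower (1.61 to 2.59), and 14 of its 15 junctions were lower. Its call was at the edge of the threshold: the log2 ratio was −1.03 and became −0.79 under the trimmed mean, −0.80 under the median of ratios, and −0.92 without its most-read junction or with junctions seen in both libraries only, where the call was lost. From its most-read junction alone it was −1.77. The other measured subunits were not called from their summed junctions. Mcm6, the most-read of them, had 314 and 290 reads, a ratio of 0.790 (0.671 to 0.930), with 13 of 16 junctions lower. From its most-read junction alone Mcm6 turned from a log2 ratio of −0.34 to 0.11. Mcm2 had 171 and 160 reads (0.800, 0.641 to 0.999), a log2 ratio of −0.32 that was −1.40, and called lower, from its most-read junction alone. Mcm3 had 117 and 109 (0.797, 0.608 to 1.04) and Mcm5 had 130 and 139 (0.915, 0.715 to 1.17). Each of these is below 2-fold, and no stimulated level was above its mock level. Mcm7, the remaining subunit, had 14 mock reads and 1 stimulated read on 4 of its 14 introns and was below the read minimum. The 6 subunits act as a ring with 1 copy of each, and their summed reads went from 943 to 812, a ratio of 0.737 (0.670 to 0.810).

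**Figure D3:**
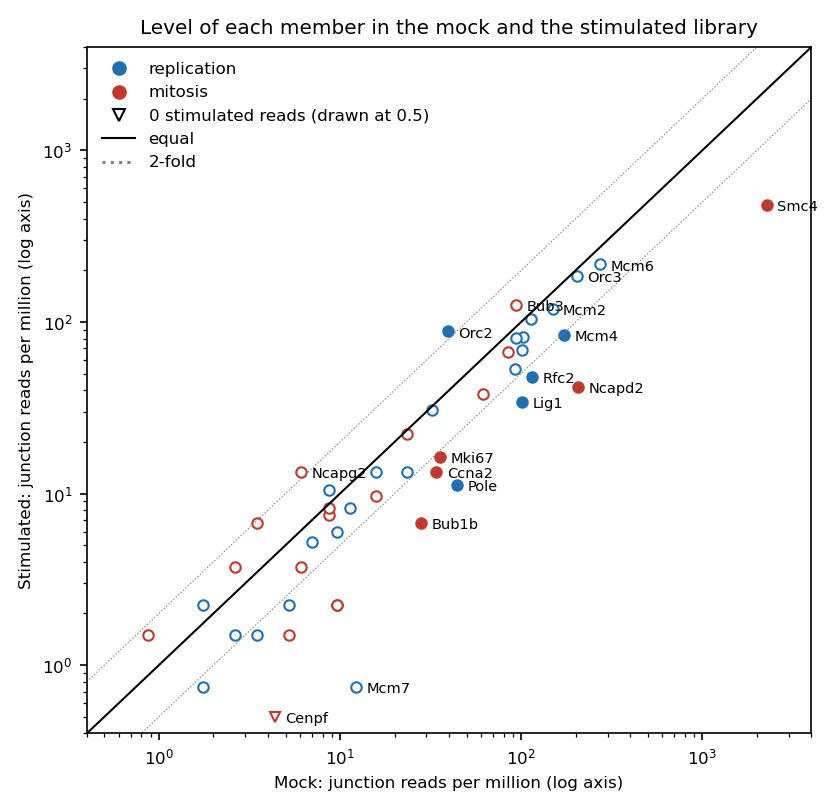
Junction RPM in the mock library (x) and the stimulated library (y), both log axes, for the 47 genes with a named junction; filled points are called genes and dotted lines mark a 2-fold difference. Smc4 stands alone at the right, at 2261 RPM in the mock and 479 in the stimulated library, and Orc2 is the filled point above the diagonal.

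Genes for origin recognition and helicase loading did not go down together. Orc2, a core subunit of the origin recognition complex (chr1:58521135-58561615), had 45 reads in the mock and 118 in the stimulated library. Its level rose from 39.2 to 88.0 RPM, a ratio of 2.24 (1.58 to 3.24), and 14 of its 16 junctions were higher. The join printed above held 36 of the 118 stimulated reads. Without it the log2 ratio was 0.85 in place of 1.17, and with junctions seen in both libraries only it was 0.90, so the call was lost in both. From that join alone it was 2.36. Orc3, which sits beside Orc2 in the complex, had 232 and 249 reads, a ratio of 0.918 (0.765 to 1.10), with 12 of 19 junctions lower. The rest had few reads: Orc1, an ATP-binding subunit, had 2 and 1, the loader Cdc6 had 2 and 3, and Mcm10 had 8 and 7. The helicase activators Cdc45 and Gins1 had 11 and 8 and 4 and 2. The summed ratio of this group was 1.09 (0.937 to 1.27).

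Among the clamp loader genes, Rfc2 was called lower, and the calls of Rfc1 and Rfc3 depended on the junctions counted. Rfc2 (chr5:135058757-135073718) had 132 mock reads and 64 stimulated reads, 115.1 and 47.7 RPM. It was 2.41-fold lower (1.78 to 3.30), and all 10 of its junctions were lower. Rfc1, the large subunit, had 116 and 92 reads (0.678, 0.510 to 0.900), a log2 ratio of −0.56 that was −1.96, and called lower, from its most-read junction alone. The 3 further subunits had few reads, and their intervals all span 1: Rfc3 had 18 and 18 (0.855, 0.420 to 1.74), Rfc4 had 13 and 11 (0.724, 0.294 to 1.75) and Rfc5 had 10 and 14 (1.20, 0.495 to 3.01). With junctions seen in both libraries only, the log2 ratio of Rfc3 was −1.40 in place of −0.23, and the gene was called lower. Pcna, the clamp itself, is not analysed here. The 5 subunits work as 1 complex, and the interval of Rfc2, 0.303 to 0.563 as a ratio, overlaps those of the other 4.

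The polymerase and ligase genes included the 2 lowest ratios among the measured genes of the replication set. Pole, the catalytic subunit of the leading-strand polymerase (chr5:110718394-110766150), had 51 reads in the mock and 15 in the stimulated library. It was 3.97-fold lower (2.20 to 7.61), on 19 of 22 junctions. Its log2 ratio of −1.99 was −1.28 when junctions absent from either library were left out, and it was still called lower. Lig1, which seals the pieces of the lagging strand (chr7:13864309-13896544), had 116 and 46 reads and was 2.95-fold lower (2.08 to 4.24), on 22 of 24 junctions. From its most-read junction alone the log2 ratio of Lig1 was −1.03 in place of −1.56. It was then not called, since the interval did not exclude no change. Pold1, of the lagging-strand polymerase, had 106 and 71 reads, a ratio of 0.573 (0.418 to 0.781) that stayed under the 2-fold threshold. Pola1 had 27 and 18 reads (0.570, 0.296 to 1.07). Prim1, the primase that starts each new strand, had 37 and 41 (0.948, 0.593 to 1.52). Summed, the 5 genes went from 337 to 191 reads, a ratio of 0.485 (0.404 to 0.581), the lowest of the replication roles.

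Nucleotide supply rested on 1 measured gene. Rrm1, the large subunit of ribonucleotide reductase, had 107 reads in the mock and 108 in the stimulated library, a ratio of 0.863 (0.655 to 1.14). Rrm2, the subunit known to rise in S phase, had 6 and 3 reads, and Tyms, which makes thymidylate, had 3 and 2. At this depth no difference was detectable for either.

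The condensin genes Ncapd2 and Smc4 had the 2 lowest ratios of the 31 measured genes. Smc4, an ATPase subunit of both condensin complexes (chr3:68809013-68838295, 26 junctions), had 2594 reads in the mock and 642 in the stimulated library, or 2261 and 479 RPM. It was 4.72-fold lower (4.33 to 5.16), and 25 of 26 junctions were lower, the exception having 1 and 3 reads. Over its 22 junctions of at least 20 reads, the ratio ran from 0.121 to 0.339 with a median of 0.206. The 13 junctions nearest the 5′ end had a ratio of 0.219 and the 13 nearest the 3′ end 0.207. Ncapd2, a subunit of condensin I only (chr6:125118338-125141515), had 236 and 56 reads and was 4.93-fold lower (3.67 to 6.72). Of its 30 junctions 26 were lower, with ratios of 0.188 over the 15 nearest the 5′ end and 0.211 over the 15 nearest the 3′ end. Both calls were kept in all 12 of the other settings tried. The remaining condensin genes were not called. Smc2, the ATPase that pairs with Smc4, had 71 and 51 reads (0.614, 0.420 to 0.893). Its 10 junctions nearest the 5′ end had 39 and 38 reads and its 10 nearest the 3′ end 32 and 13, ratios of 0.833 (0.519 to 1.34) and 0.347 (0.167 to 0.681). Ncapg2, of condensin II, had 7 and 18 reads, a ratio of 2.20 (0.877 to 6.23), and was called higher under the trimmed mean and the median of ratios. Over all junctions the counting interval of Smc4 does not overlap those of Smc2 or Ncapg2. It does lie within that of the 10 Smc2 junctions nearest the 3′ end.

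**Figure D4:**
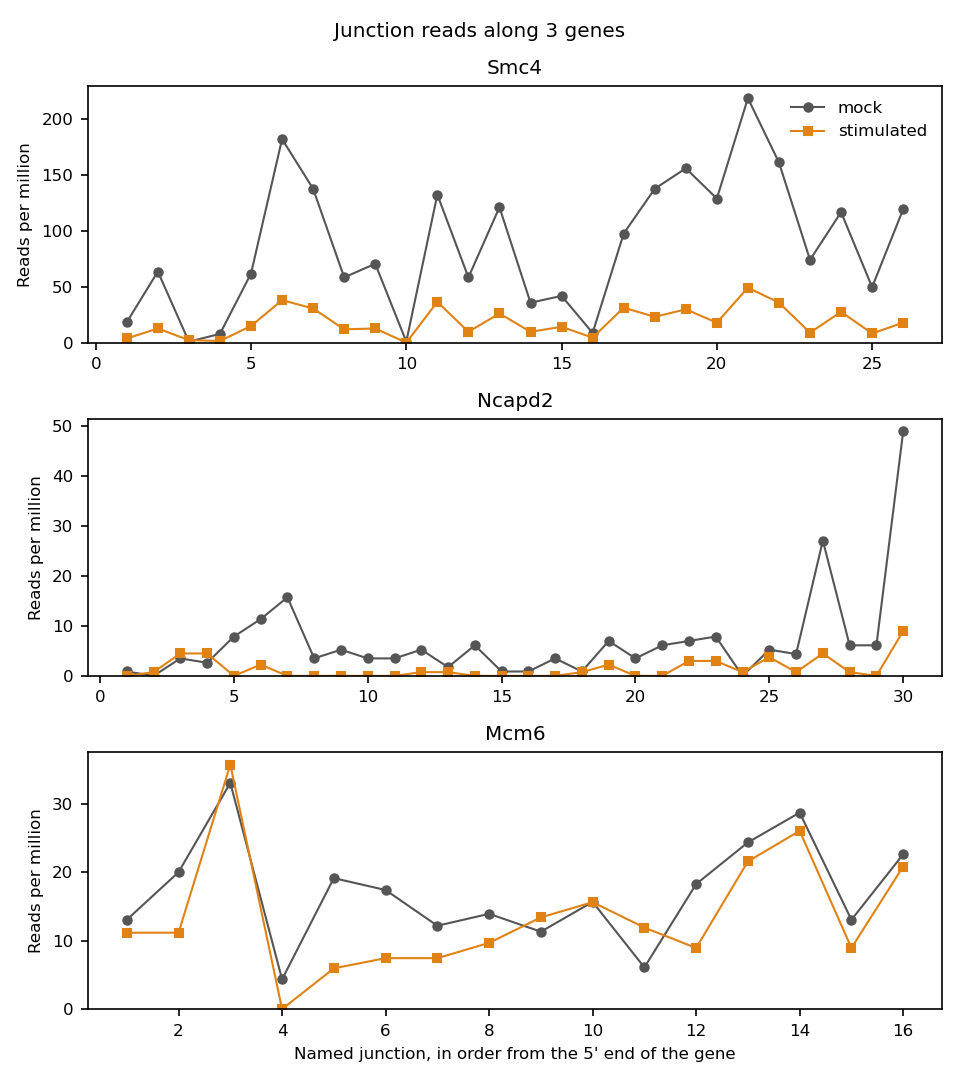
RPM at each named junction, in order from the 5′ end of the gene, for Smc4, Ncapd2 and Mcm6 in the mock library (circles) and the stimulated library (squares). Smc4 is lower at 25 of its 26 junctions in the stimulated library, Ncapd2 ends in its tallest junction at 56 mock and 12 stimulated reads, and the Mcm6 profiles cross.

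Smc4 also stood apart in level. Per named junction it had 99.8 reads in the mock library, where Mcm6 came next with 19.6 and Rfc2 had 13.2. In the stimulated library it had 24.7, followed by Mcm6 with 18.1 and Bub3 with 16.8. Smc4 held 48.7% of all reads of the 47 genes in the mock and 22.4% in the stimulated library. Top2a, the topoisomerase that untangles chromosomes and a usual mark of dividing cells, had 97 and 89 reads (0.785, 0.582 to 1.06), or 3.23 and 2.97 per junction. From its most-read junction alone the log2 ratio of Top2a turned from −0.35 to 0.36.

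Among kinetochore and checkpoint genes only Bub1b was called, with ratios on both sides of no change. Bub1b, the checkpoint protein BubR1 (chr2:118424198-118466823), had 32 reads in the mock and 9 in the stimulated library. It was 4.16-fold lower (1.94 to 9.90), on 15 of 17 junctions. Bub3, its binding partner, had 108 and 168 reads, a ratio of 1.33 (1.04 to 1.71), with 8 of 10 junctions higher, and did not reach 2-fold. The intervals of the 2 partners do not overlap. Cenpe, a kinetochore motor, had 18 and 13 reads (0.618, 0.278 to 1.33). Bub1 had 6 and 2, the checkpoint kinase gene Ttk had 3 and 5, and Cenpf had 5 and 0.

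Ccna2, which encodes the S and G2 phase cyclin A2 (chr3:36465205-36469657), was the only called gene among mitotic kinases and cyclins. It had 39 reads in the mock and 18 in the stimulated library and was 2.53-fold lower (1.41 to 4.70), with all 5 named junctions lower. Ccnb2, a B-type cyclin, had 10 and 10 (0.855, 0.320 to 2.29), and the mitotic kinase gene Plk1 had 10 and 11 (0.941, 0.363 to 2.47). Neither interval excludes a 2-fold difference in either direction. Cdk1, the kinase that drives entry into mitosis, had 4 and 9 reads, Aurka had 11 and 3 and Aurkb had 1 and 2.

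Mki67, which encodes the proliferation marker Ki-67 (chr7:142881817-142907730), had 41 reads in the mock and 22 in the stimulated library. It was 2.18-fold lower (1.27 to 3.84), on 10 of 13 junctions. The call was lost under the trimmed mean (log2 ratio −0.88 in place of −1.12), under the median of ratios (−0.90), without its most-read junction (−0.95) and with an interval that also holds the spread among junctions of a gene. Tpx2, a spindle assembly factor, had 27 and 30 reads (0.950, 0.546 to 1.66), but its ends differed. The 7 junctions nearest the 5′ end had 0 mock reads and 11 stimulated reads, with a lower limit of 2.15 for the ratio, and the 7 nearest the 3′ end had 25 and 14, a ratio of 0.479 (0.230 to 0.958). The cytokinesis genes Anln and Prc1 had 11 and 3 and 7 and 5 reads. This split by end was added after the data had been seen. It was made for each measured gene with at least 6 named junctions, and the splits printed were picked from these.

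The 16 named genes below the minimum held 98 reads in the mock and 56 in the stimulated library, a summed ratio of 0.489 (0.346 to 0.686). With a minimum of 10 reads in place of 20, Mcm7, Aurka and Anln would also be called lower, while Mcm10, Cdc45, Cdk1 and Prc1 would not. At that minimum 12 of 38 members were lower, beside 25.1% of 8113 genes. Markers of other cells were read beside these. The 10 B cell markers had 192 and 171 reads, 8 of 10 myeloid symbols had 58 and 42 (Lyz2 15 and 0, Flt3 8 and 0, and Cybb, the only one called, higher at 5 and 19), and 6 of 8 erythroid markers had 24 and 40. Of the NK markers only Klrd1 was named, at 38 and 20 reads, and of the CD8 markers only Cd8b1, at 16 and 5. Summed, each was below the CD4 markers in both libraries, and their part in the results was not tested.

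Further genes of the pathways were read from lists, to place the members beside the rest of the machinery. Of 52 other replication genes 36 were measured, with a median log2 ratio of −0.01 (−0.21 over all measured genes). In this list 8 were lower and 4 higher, beside 25.1% and 17.0% of all measured genes. The lower ones were Samhd1, which breaks down nucleotides, at 1648 and 963 reads (2.00-fold lower, 1.85 to 2.17), the single-strand binding gene Rpa1 at 478 and 120 (4.66-fold, 3.80 to 5.74), Topbp1, Pola2, Dbf4, Gins4, Timeless and Pold4. The Samhd1 call was at the edge of the threshold, with a ratio of 0.4998. With the 20 most-read genes left out of the library totals, 7 of the 36 were called lower, beside 25.0% of all measured genes. The higher ones were Top1, which relaxes DNA, at 359 and 1139 reads (2.71-fold, 2.41 to 3.06), Ssrp1, a histone chaperone, at 335 and 936 (2.39-fold, 2.11 to 2.72), Pold2 and Tipin. Under the trimmed mean 5 were lower and 8 higher, beside 19.6% and 21.6% of all measured genes. Pold2 had 68 and 215 reads, while the catalytic partner Pold1 had 106 and 71.

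Of 80 other mitosis symbols 45 were measured, with a median log2 ratio of −0.74 (−0.21 over all measured genes). In this list 18 were lower and none higher, beside 25.1% and 17.0% of all measured genes. Under the trimmed mean 14 were lower and 1 higher, beside 19.6% and 21.6% of all. The most-read lower genes were Top2b, a topoisomerase that non-dividing cells also make, at 1152 and 381 reads (3.53-fold lower, 3.15 to 3.98), the cohesin genes Stag2 (1057 and 477), Nipbl (1030 and 585) and Rad21 (468 and 226), the condensin II gene Ncapd3 (391 and 102), the phosphatase gene Cdc25b (341 and 35), Anapc2 (246 and 91) and Anapc4 (147 and 82). Cdc25b had the largest of these differences, 11.4-fold (8.03 to 16.6). Ncapd3 was 4.48-fold lower (3.60 to 5.63), close to Ncapd2 and Smc4. Ncaph2, also of condensin II, had 172 and 220 reads (1.09, 0.892 to 1.34), so the condensin genes did not all go down. The cohesin ATPase genes Smc1a (597 and 809) and Smc3 (406 and 350) were not called.

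**Figure D5:**
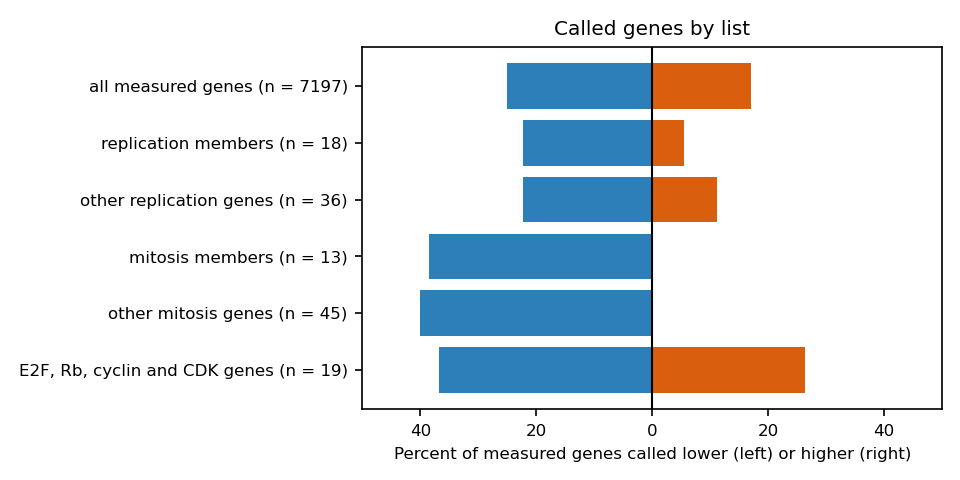
Percent of measured genes called lower (left of 0) or higher (right of 0) in all measured genes and in each list, with n the number measured. The members of the mitosis set and the other mitosis genes show no higher call, whereas 17.0% of all measured genes were higher.

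Of 29 listed genes that control the members 19 were measured, 5 of them higher and 7 lower, beside 17.0% higher and 25.1% lower of all measured genes. Ccnd2, a D-type cyclin that starts entry into the cycle, had 58 reads in the mock and 750 in the stimulated library, 11.1-fold higher (8.46 to 14.7), and its kinase partner genes Cdk4 (56 and 187) and Cdk6 (5 and 24) rose with it. Tfdp1, a partner of the E2F factors, had 4 and 27 reads, and the inhibitor gene Cdkn1a had 0 and 49. Among the lower genes were the retinoblastoma relatives Rbl1 (194 and 43 reads) and Rbl2 (376 and 61), the inhibitor Cdkn1b (186 and 40) and Ccnd3 (111 and 27). Lin37, Lin9 and Tfdp2, another E2F partner with 22 and 9 reads, were lower as well. E2f1, an activator of replication genes, had 0 and 9 reads and was below the minimum. So were E2f2 (8 and 3), E2f3 (1 and 5), E2f7 (0 and 2) and E2f8 (11 and 5). E2f4 (224 and 397), E2f5, E2f6 and the retinoblastoma gene Rb1 (257 and 182) were measured and not called.

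Promoters of 3 called mitosis genes, Ncapd2, Mki67 and Bub1b, are printed because the cell cycle homology region (CHR; TTTGAA or TTCGAA) and the CCAAT box are known marks of genes that peak late in the cycle. RefSeq windows of GRCm38.p6 were found for 41 of the 50 genes. Smc4 and Ccna2 are among the genes with no entry. Each line gives the 250 bases before the annotated start, 5′ to 3′ on the gene's strand, with CHR and CCAAT words of either strand in capitals.
Ncapd2: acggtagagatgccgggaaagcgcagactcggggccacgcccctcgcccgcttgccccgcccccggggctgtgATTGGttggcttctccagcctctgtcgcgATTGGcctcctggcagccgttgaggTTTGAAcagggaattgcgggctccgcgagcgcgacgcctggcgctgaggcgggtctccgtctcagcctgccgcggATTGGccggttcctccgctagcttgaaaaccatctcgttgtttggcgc
Mki67: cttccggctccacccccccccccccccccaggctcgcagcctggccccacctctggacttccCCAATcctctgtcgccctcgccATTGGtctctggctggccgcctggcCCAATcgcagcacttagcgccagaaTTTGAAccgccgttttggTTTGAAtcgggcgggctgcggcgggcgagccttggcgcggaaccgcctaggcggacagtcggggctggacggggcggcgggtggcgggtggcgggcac
Bub1b: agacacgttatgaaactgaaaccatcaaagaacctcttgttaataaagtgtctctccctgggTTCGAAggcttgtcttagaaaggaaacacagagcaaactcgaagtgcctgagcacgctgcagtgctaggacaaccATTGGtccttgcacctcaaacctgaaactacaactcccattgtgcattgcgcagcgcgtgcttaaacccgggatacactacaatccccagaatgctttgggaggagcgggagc
The windows lie at chr6:125191587-125191836 (minus strand), chr7:135716380-135716629 (minus strand) and chr2:118597961-118598210 (plus strand). Each holds at least 1 CHR word and 1 CCAAT word and none of the E2F words searched (GCGGGAA or GGCGGGA, either strand). Other forms of the E2F site were not searched, so a window without these words may still hold one. Of 47 member windows 15 (31.9%) held a CHR word, 11 of 20 in the mitosis set and 4 of 27 in the replication set. Among the 32851 windows counted, which leave out a chromosome that holds no member, the share was 17.1%. CHR words also lay in windows of genes not called lower, such as Bub3 (ratio 1.33), Ncapg2 (2.20) and Top2a (0.785). A gene can have several windows, and those of Bub3 overlap and hold the same CHR word. A CCAAT word was in 35 member windows (74.5%, against 33.8% of the windows counted) and an E2F word in 18 (38.3%, against 11.4%). These are matches of letters, and no binding was measured.

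Smc4 also hosts a pair of microRNAs, which are shown because reads across their intron were among those that fell. Each line gives the mature RNA with its seed, bases 2 to 8, in capitals, from RefSeq (GRCm38.p6).
miR-15b-5p: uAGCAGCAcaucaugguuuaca
miR-16-5p: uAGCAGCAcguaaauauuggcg
They share the seed AGCAGCA, and the hairpins of Mir15b (GRCm38.p6 chr3:69009772-69009835) and Mir16-2 (chr3:69009902-69009996), both on the plus strand, lie in the intron that in mm9 runs from chr3:68813583-68820014. The join that removes this intron was read 209 times in the mock and 51 times in the stimulated library, a ratio of 0.209 (0.151 to 0.285), close to the ratio of Smc4 as a whole. The microRNAs themselves were not measured, since these libraries count spliced reads.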

How the data were processed

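The authors deposited 1 list of splice junctions per library, and its score column, used as deposited, holds counts of reads across each junction, with no normalization. TopHat, Cufflinks and the build mm9 are named per the submitters' processing notes, while versions, settings and filters were not given in the sources used here. Mean insert sizes were 211.79 bp (mock) and 199.014 bp (stimulated), per the labels' protocols. A junction that the aligner missed counts as 0, and reads within exons are not counted.

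Genes were named by structure, because the annotation (GENCODE M21, GRCm38) is of another build and no coordinate was converted. A junction took a gene's name when its chromosome, strand and intron length equalled an annotated intron and its exact spacing to at least 1 other such junction matched a transcript, readthrough transcripts left out. Of 124183 junctions 95336 (76.8%), with 95.6% of the mock and 95.8% of the stimulated reads, were named, and 321 that matched several genes were dropped. Within the members' spans 36 junctions, with 28 and 26 reads, had no name. The naming was tested on simulated data.

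Reads were summed per gene and divided by the library's total junction reads. With 1 library per group no p-value was computed and no gene was tested across samples. The rule for names was every member with its counts, junctions of the called and most-read members, and called genes of the other lists up to the 8 most-read in each direction. Regulators, splits by gene end and subsets without Smc4 or condensin fall outside it. Members and lists were chosen with earlier results of these data known. The interval of a ratio of ratios uses the normal approximation to the logarithms of 4 summed counts. The spread between junctions of a gene, measured over 4911 genes (3 or more junctions, each reaching 10 reads), was 2.01-fold the variance from counting. Python 3.11.15, numpy 2.4.6, scipy 1.17.1, matplotlib 3.10.9, R 4.3.3 and edgeR 4.0.16 (trimmed mean of M values only) were used.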

Additional observations from a re-analysis of the deposited data

How the results depend on the processing

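The settings tried were 12 listed at the start and the set without Smc4, added after seeing the data. Neither summed set nor any of the 10 called genes changed direction in them. Genes that were not called did: 8 of the 21 turned from below to above no change under the trimmed mean (Mcm5, Orc3, Rfc3, Prim1, Rrm1, Tpx2, Ccnb2 and Plk1) and 6 of these under the median of ratios, 3 turned with the most-read junction alone (Mcm6, Prim1 and Top2a) and 5 without it (Rfc3, Rfc5, Tpx2, Ccnb2 and Plk1). The kinetochore and checkpoint sum turned from −0.03 to 0.21 under the trimmed mean. The number of genes called lower was 9 of 31, beside 25.1% of all measured genes, and 3 at a fold of 4, beside 8.77%. It was 7 under the trimmed mean (19.6% of all) and the median of ratios (20.1%). It was 11 at a fold of 1.5 (33.8%) and 8 with the interval that holds junction spread (22.4%). The most-read junction alone gave 7 of 16 (23.6%), and its removal 7 of 27 (24.5%). A minimum of 10 reads gave 12 of 38 (25.1%) and of 50 reads 8 of 22 (24.1%). Junctions seen in both libraries gave 9 of 27 (21.0%). The number called higher was 1, beside 17.0% of all measured genes. It was 2 with either the trimmed mean or the median of ratios (Orc2 and Ncapg2), beside 21.6% and 21.4%. It was 0 without each gene's most-read junction (17.0%), with junctions seen in both libraries only (15.3%) and at a fold of 4 (6.70%). The summed log2 ratio of the replication set was −0.45, and it was −0.21 under the trimmed mean, −0.22 under the median of ratios and −0.56 from each gene's most-read junction. That of the mitosis set was −1.74, and it was −1.50 under the trimmed mean, −1.52 under the median of ratios, −1.52 from those junctions and −0.73 without Smc4. Scaling moves every ratio by the same amount, and the cause of the other shifts was not tested, apart from the removal of Smc4 itself. Ncapd2 and Smc4 stayed lower in all 12 settings, and Rfc2 and Ccna2 in all but a fold of 4. Of 217 recomputed ratios of single genes 199 stayed within their counting interval and 18 moved outside it, most of them from the most-read junction alone. No paired analysis was possible because each group has 1 library, and for that reason no library could be left out. Depth limits the 16 genes under 20 reads.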
